A study of Mus musculus with 23 samples.

Results

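DCTCF2 is a line of E14 mouse embryonic stem cells (ESCs) whose label names a CTCF site, numbered 2, at the Shh locus. Its contact maps were set against those of wild type E14 ESCs to ask what changes in the folding of the Shh domain. The members were chosen by sample title and comprise 4 of the 23 libraries of the series, 2 of DCTCF2 and 2 of wild type cells. A further 10 libraries, 2 from each of the ESC lines DCTCF1, DCTCF3, DCTCF4, DCTCF5 and D35, were used for the estimate of the spread between replicates. All ESCs were grown in GMEM with a supplement for ESCs. The sources used here do not give where the deleted site lies, on how many alleles, or how many clones were used, so contacts next to the site itself were not described.

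The assay was 5C, in which fixed chromatin is cut with HindIII, religated, and the ligation products of one region are read through a set of primers. CTCF is a DNA-binding protein that halts the loop-extruding cohesin complex, and sites bound by it often lie at the borders of topological domains, within which DNA contacts itself more than its surroundings. Shh encodes Sonic hedgehog, a secreted signalling protein that patterns the limb and the neural tube. Its limb enhancer, the ZRS, lies in an intron of Lmbr1 at the far end of the domain from Shh. The RefSeq gene order across the region is Insig1, En2, Cnpy1, Rbm33, Shh, Rnf32, Lmbr1, Nom1, Mnx1 and Ube3c.

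The maps held 80 bins of 21 kb on chromosome 5 of mm9, numbered here from 0. Bin 21 (28.758 to 28.779 Mb) and bin 65 (29.682 to 29.703 Mb) are the boundaries of the central domain, bins 22 to 64. The left domain is bins 0 to 20 and the right domain bins 66 to 79. The central domain was divided into a Shh end (bins 22 to 35), a middle (bins 36 to 49, 29.073 to 29.367 Mb) and a Lmbr1 end (bins 50 to 64). Bin 22 (28.779 to 28.800 Mb) is taken as the bin of Shh from general knowledge of the mm9 map, since no mm9 annotation was used.

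Total contact values were nearly equal over the 14 ESC libraries, between 48279 and 48797 per library, and the depth in reads is unknown. Bins 25, 29 and 64 had no value in any of them. Between 49.3% and 49.4% of the pairs in each of the 4 libraries held the same value as a neighbouring pair, so neighbouring pairs are not independent measurements. One bin pair stood at 0 in DCTCF2 replicate 2 and none in the other 3 libraries, and no bin lost all its contacts in DCTCF2. The maps hold no expression values, so the labelled cell type and the deletion could not be checked. Both DCTCF2 titles speak of biological replicates, but the second library's run name holds an abbreviation for a technical repeat and shares the number 7 with the first. The p-values rest on the spread between libraries of the same line, pooled over the 14 ESC libraries. For DCTCF2 that spread may be technical. Both DCTCF2 libraries and wild type replicate 1 were run in 2015 and wild type replicate 2 in the following year. The difference from the 2015 wild type library alone is given where it bears on a result. With each separation's mean taken out, the 2 DCTCF2 maps correlated across bin pairs at r = 0.887, the 2 wild type maps at 0.862, and DCTCF2 with wild type maps at 0.840 on average. These are descriptions across pairs that share libraries and neighbours.

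**Figure D1:**
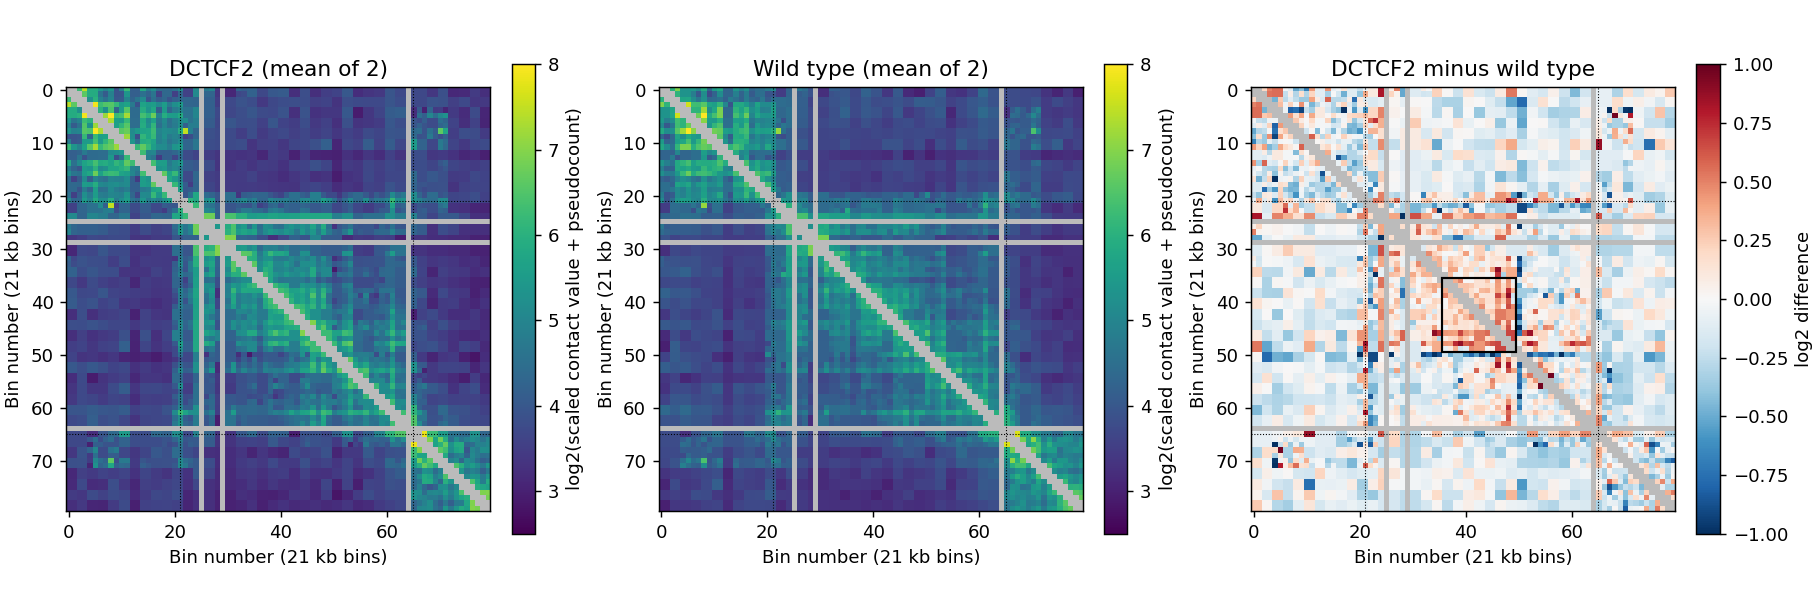
Contact maps of DCTCF2 and wild type ESCs and their log2 difference. Axes give bin number, and values are means of 2 libraries per line. The middle of the central domain is higher in DCTCF2 (regional difference 0.37). The corner between the Shh end and the Lmbr1 end is lower (-0.20) without passing the threshold.

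Inside the central domain, contacts rose in the middle stretch. Its mean scaled contact value (contact values scaled to the same total in each library) was 44.5 and 44.4 in DCTCF2, against 32.3 and 36.5 in wild type ESCs. Both DCTCF2 libraries lay above both wild type libraries, a 1.296-fold difference (log2 0.37 ± 0.08 SE, limma adjusted p = 0.00162). It was the 1 region called of the 12 tested, or 8.33%, while 3 (25%) passed at an unadjusted p under 0.05. With only the 2015 wild type library as control the difference was 0.46. Without wild type replicate 1 it was 0.28 and missed the threshold (adjusted p = 0.063). The rise spread over many bin pairs: 74 of its 78 pairs were higher in DCTCF2, with a median log2 difference of 0.28, against -0.07 over all 2853 pairs. In 54 of them (69.2%) the groups did not overlap on the higher side, and in 0 on the lower side. Over all pairs the shares were 13.7% higher and 29.7% lower.

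Contacts between the ends of the central domain went the other way without passing the threshold. The Shh end and the Lmbr1 end had mean scaled contact values of 14.0 and 14.0 with each other in DCTCF2 and 16.0 and 16.1 in wild type (log2 -0.20 ± 0.07, adjusted p = 0.081). Of these 168 pairs, 3 lay wholly above and 69 (41.1%) wholly below the wild type range, against 13.7% and 29.7% of all pairs. The Shh end with the middle had 28.3 and 26.9 in DCTCF2 against 24.5 and 25.7 in wild type (log2 0.14 ± 0.07, adjusted p = 0.189). Within the Lmbr1 end the groups overlapped, with 33.3 and 31.1 in DCTCF2 and 31.5 and 35.3 in wild type. Over the central domain as a whole the value was 26.9 and 26.1 in DCTCF2, against 23.9 and 25.7 in wild type (log2 0.10 ± 0.07, adjusted p = 0.349). The whole-domain mean thus joins a stretch that was called higher and a corner that was lower without passing the threshold.

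**Figure D2:**
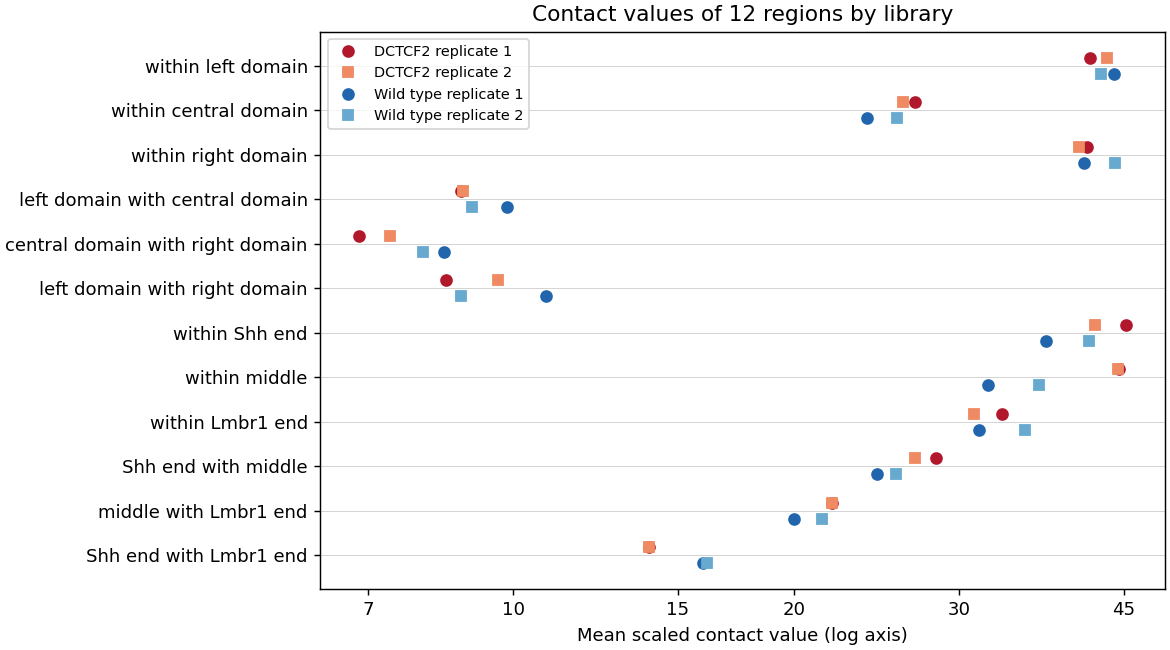
Scaled contact values of the 12 regions in each library (points) of DCTCF2 and wild type ESCs; the DCTCF2 points of the middle stretch, 44.5 and 44.4, lie above the wild type points, 32.3 and 36.5.

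The authors' observed over expected values, which divide out the mean contact at each separation, gave the same direction in the middle. They were 1.12 and 1.14 in DCTCF2 and 0.881 and 0.929 in wild type (log2 0.32 ± 0.05, limma adjusted p = 2.81e-04). On this scale 4 of 12 regions were called, or 33.3%. The Shh end with the middle rose (1.49 and 1.43 in DCTCF2 against 1.302 and 1.34 in wild type, adjusted p = 0.0440). The Lmbr1 end fell within itself (0.835 and 0.792 in DCTCF2 against 0.882 and 0.923 in wild type, adjusted p = 0.0440). The right domain also fell within itself (1.00 and 1.01 in DCTCF2 against 1.11 and 1.14 in wild type, adjusted p = 0.0125). The Shh end with the Lmbr1 end was not called here either (1.45 and 1.43 in DCTCF2 against 1.52 and 1.58 in wild type, adjusted p = 0.319).

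Square tiles of 5 by 5 bins, which do not depend on where domains are drawn, placed the highest part of the rise at bins 45 to 49 (29.262 to 29.367 Mb). Contacts within this tile were 69.4 and 66.02 in DCTCF2 and 43.8 and 47.7 in wild type, a 1.48-fold difference (log2 0.57 ± 0.12, limma adjusted p = 0.0339). It was the 1 tile called of 134, or 0.746%, and 26 (19.4%) passed at an unadjusted p under 0.05. The call was lost when any 1 of the 4 libraries was left out. The adjusted p was 0.248 and 0.134 when DCTCF2 replicates 1 and 2 were dropped in turn, and 0.198 and 0.0541 when wild type replicates 1 and 2 were. With run year as a covariate it was 0.142. Its neighbours of bins 35 to 39 with 45 to 49 (log2 0.42) and of bins 40 to 44 with 45 to 49 (log2 0.41) did not pass (adjusted p = 0.0904 each). The tile within bins 0 to 4 at the far left had 76.2 and 81.5 in DCTCF2 against 63.9 and 56.4 in wild type (log2 0.39, adjusted p = 0.156). The lowest p-values on the lower side joined bins 50 to 54 with bins 15 to 19 (log2 -0.38) and with bins 75 to 79 (log2 -0.41), and bins 55 to 59 with bins 70 to 74 (log2 -0.32), all above the threshold (adjusted p = 0.156, 0.175 and 0.175).

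Both boundaries kept their place. The insulation value of a bin compares contacts that cross it, between the flanking 5 bins on either side, with the mean of the library on the log2 scale, and a low value marks a strong boundary. Ranked by height above their shoulders, bins 21 and 65 held the 2 most prominent minima in each of the 4 libraries. By the value alone, some bins near bin 21 lay lower than bin 65 of the same library. In wild type replicate 2 these were bins 20 (-0.86), 22 (-0.95), 23 (-0.88) and 24 (-0.91), against -0.83 at bin 65. Bin 22 did so in wild type replicate 1 (-0.79 against -0.72) and bin 20 in DCTCF2 replicate 2 (-0.99 against -0.98). At bin 65 the insulation value fell to -1.19 and -0.98 in DCTCF2, against -0.72 and -0.83 in wild type (difference -0.31 ± 0.09, limma adjusted p = 0.0194). It passed at -0.36 with run year as a covariate but not without DCTCF2 replicate 1 (-0.20, adjusted p = 0.200) or without wild type replicate 1 (-0.25, adjusted p = 0.158). The height of the minimum above its shoulders was 1.75 and 1.58 in DCTCF2, against 1.18 and 1.43 in wild type. The 20 pairs spanning bin 65 averaged 14.5 and 16.5 in DCTCF2, against 18.7 and 18.5 in wild type.

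Bin 21, the boundary beside Shh, gave no such difference. Its insulation value was -1.24 and -1.33 in DCTCF2 and -0.95 and -1.36 in wild type, so that the groups overlapped (difference -0.13 ± 0.10, adjusted p = 0.362). The result turned on the wild type pair: the difference was 0.07 without wild type replicate 1 (adjusted p = 0.686) and -0.34 without wild type replicate 2 (adjusted p = 0.0266). Bin 22 had an insulation value of -0.64 and -0.73 in DCTCF2, against -0.79 and -0.95 in wild type (difference 0.18 ± 0.10, adjusted p = 0.164). A weaker minimum lay at bin 31 in all 4 libraries, with a height of 0.759 and 0.779 in DCTCF2, against 0.478 and 0.523 in wild type.

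**Figure D3:**
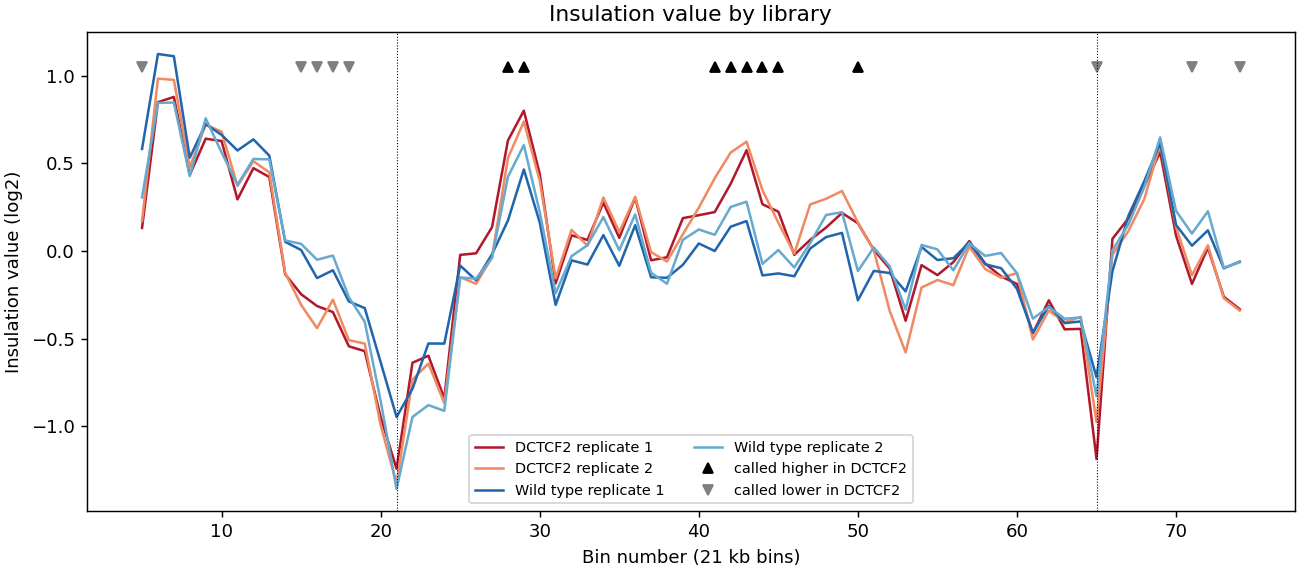
Insulation value (log2) by bin in each DCTCF2 and wild type library; the most prominent minima lie at bins 21 and 65, and at bin 65 DCTCF2 lies at -1.19 and -0.98 below wild type at -0.72 and -0.83.

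Of the 70 bins tested for insulation, 16 were called (22.9%), 8 higher (11.4%) and 8 lower (11.4%), and 26 (37.1%) passed at an unadjusted p under 0.05. The higher bins lay in the central domain, at bins 28 to 29, 41 to 45 and 50, and the lower ones at bins 5, 15 to 18, 65, 71 and 74. The run at bins 41 to 45 was led by bin 44, at 0.27 and 0.35 in DCTCF2, against -0.14 and -0.07 in wild type (difference 0.41 ± 0.07, adjusted p = 0.00108). Its call held without any 1 of the 4 libraries, but was lost with a window of 3 bins on either side in place of 5. Bin 50 stood at 0.16 and 0.16 in DCTCF2, against -0.28 and -0.11 in wild type (difference 0.36, adjusted p = 0.00674), but missed the threshold without wild type replicate 1 (adjusted p = 0.0642). The windows of bins 41 to 45 share bin pairs with the middle stretch, so the rise there and the rise of the middle are not independent. In the left domain, bin 15 stood at -0.25 and -0.31 in DCTCF2, against 0.0054 and 0.041 in wild type (difference -0.30, adjusted p = 0.00731), and bin 5 differed by -0.29 (adjusted p = 0.0251). Bin 28 differed by 0.28 (adjusted p = 0.0198), bin 71 by -0.23 (adjusted p = 0.0183) and bin 74 by -0.27 (adjusted p = 0.00839). Each of these 5 calls hung on single libraries. Dropping DCTCF2 replicate 1 ended the calls at bins 5, 28 and 71 (adjusted p = 0.142, 0.169 and 0.142). Dropping DCTCF2 replicate 2 ended all 5 (0.0757 at bin 5 and 0.0601 at the others). Dropping wild type replicate 1 ended those at bins 5, 28, 71 and 74 (0.338, 0.290, 0.0548 and 0.0548), and dropping wild type replicate 2 that at bin 71 (0.0729). With run year as a covariate bin 71 also missed the threshold (adjusted p = 0.0530). The calls at bins 5, 15, 50, 71 and 74 were also lost with the window of 3 bins.

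Bins 21 and 22, which are adjacent, differed from wild type in opposite directions toward the central domain. Bin 21 contacted it at 27.5 and 26.2 in DCTCF2, against 19.7 and 21.3 in wild type (log2 0.39 ± 0.10). Bin 22, the bin of Shh, contacted it at 15.3 and 14.0 in DCTCF2, against 21.99 and 19.0 in wild type (log2 -0.48 ± 0.12). The groups did not overlap at either bin, but both differences missed the threshold over the 231 combinations of bin and domain (limma adjusted p = 0.0661 each). Of those combinations 2 were called lower (0.866%) and 43 (18.6%) passed at an unadjusted p under 0.05. The rise was not particular to bin 21. Bin 48 with the central domain had the smallest p-value on the higher side. It stood at 42.2 and 39.7 in DCTCF2, against 27.9 and 28.9 in wild type (log2 0.53, limma adjusted p = 0.0661). Bin 46 with the central domain differed by 0.39 (adjusted p = 0.0938). Set against wild type replicate 1, the library of the same run year, the differences were 0.45 for bin 21 and -0.59 for bin 22. On the observed over expected scale both passed, with 10 of 231 called (4.33%). Bin 21 rose there (2.19 and 2.10 in DCTCF2 against 1.46 and 1.65 in wild type, adjusted p = 0.0139) and bin 22 fell (1.12 and 1.02 in DCTCF2 against 1.58 and 1.46 in wild type, adjusted p = 0.0268). Bin 48 with the central domain was also called higher there (1.76 and 1.68 in DCTCF2 against 1.21 and 1.25 in wild type, adjusted p = 0.0315). Across the boundary at bin 21, bin 24 was called higher with the left domain (log2 0.43, adjusted p = 0.0315). Bins 4, 19 and 50 were called lower with the left domain (adjusted p = 0.0268, 0.0421 and 0.0315).

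The difference at bin 22 varied along the central domain. With the Shh end its mean was 20.8 and 18.4 in DCTCF2 against 26.3 and 20.9 in wild type, a ratio of 0.834. With the middle it was 13.2 and 13.0 in DCTCF2 against 20.3 and 15.8 in wild type, a ratio of 0.733. With the Lmbr1 end it was 13.4 and 11.9 in DCTCF2 against 20.6 and 20.8 in wild type, a ratio of 0.611. All 14 pairs of bin 22 with the Lmbr1 end were lower, and 12 (85.7%) without overlap, against 29.7% of all pairs. These are not 14 separate values: bins 50 and 51, 54 and 55, and 56 and 57 held equal values with bin 22. The order of these ratios was not tested. Bin 22 with the left domain showed overlapping groups, at 20.6 and 21.0 in DCTCF2 and 24.9 and 15.6 in wild type. With the right domain bin 22 was also lower, at 8.12 and 8.60 in DCTCF2 against 12.2 and 9.06 in wild type, without passing the test (log2 -0.33 ± 0.13, adjusted p = 0.141).

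Bin 21 was higher with each stretch: 30.7 and 29.3 in DCTCF2 against 23.2 and 24.3 in wild type with the Shh end, and 25.7 and 24.4 in DCTCF2 against 19.0 and 18.8 in wild type with the middle. With the Lmbr1 end it had 26.9 and 25.5 in DCTCF2, against 17.6 and 21.4 in wild type. Of its 39 pairs with the central domain 37 were higher and 22 (56.4%) did not overlap on the higher side, against 13.7% of all pairs. Bin 65 contacted the Lmbr1 end at 36.4 and 33.5 in DCTCF2, against 26.4 and 29.4 in wild type. With the middle it went the other way, at 11.0 and 9.06 in DCTCF2 against 13.0 and 11.2 in wild type. All 14 pairs were lower, 8 of them (57.1%) without overlap. Over all 2853 pairs 1786 were lower, and 29.7% were lower without overlap. Over the whole central domain its contacts were not called (20.9 and 18.1 in DCTCF2 against 17.5 and 17.4 in wild type, adjusted p = 0.525).

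**Figure D4:**
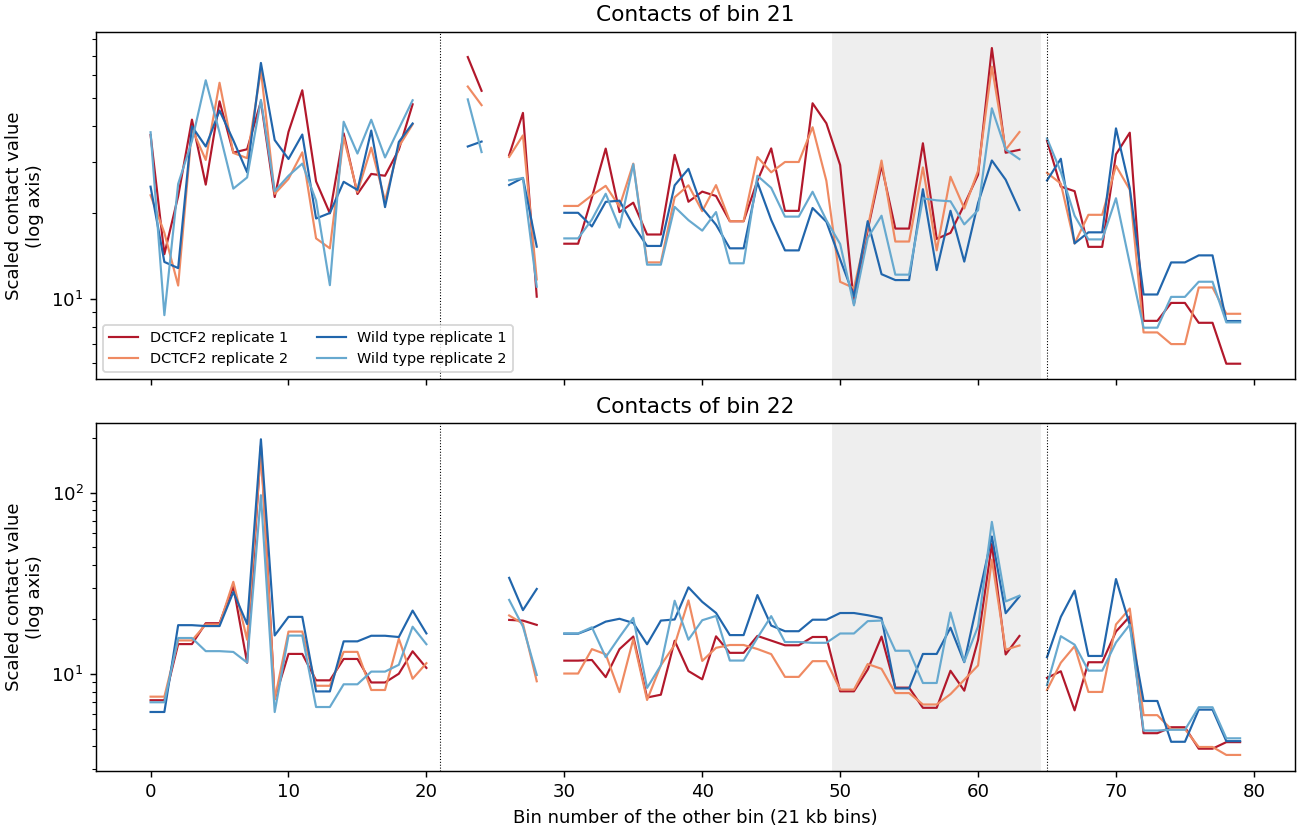
Scaled contact values of bins 21 and 22 with all bins at least 2 bins away in each DCTCF2 and wild type library; toward the central domain bin 21 is higher in DCTCF2 (mean 27.5 and 26.2 against 19.7 and 21.3) and bin 22 lower (mean 15.3 and 14.0 against 21.99 and 19.0).

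A contact peak with bin 61 (29.598 to 29.619 Mb) was present from both bins. This bin was singled out after its values were seen. Among bins 30 to 63 it was the strongest partner of bins 21 and 22 in all 4 libraries. Bin 21 with bin 61 had 74.7 and 64.3 in DCTCF2, against 30.3 and 46.1 in wild type (log2 0.81 ± 0.23, adjusted p = 0.364 over 2853 pairs). Bin 22 with bin 61 had 52.0 and 42.8 in DCTCF2, against 57.3 and 69.0 in wild type (log2 -0.38 ± 0.26, adjusted p = 0.707). Beside it, bin 22 with bin 62 had 12.8 and 13.6 in DCTCF2, against 21.7 and 25.1 in wild type (log2 -0.65, adjusted p = 0.235). Bin 22 with bin 63 had 16.2 and 14.4 in DCTCF2, against 26.8 and 27.0 in wild type (log2 -0.67, adjusted p = 0.364). None of these single pairs passed the test.

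Bins 50 and 51 gave both called combinations, lower with the left domain. Bin 50 (29.367 to 29.388 Mb) contacted it at 5.70 and 4.74 in DCTCF2, against 8.38 and 8.83 in wild type (log2 -0.73 ± 0.14, limma adjusted p = 0.0243). Bin 51 had 5.44 and 4.69 in DCTCF2, against 7.56 and 7.70 in wild type (log2 -0.60 ± 0.13, adjusted p = 0.0372). In each of the 4 libraries 20 of the 21 values of bin 51 with the left domain equal those of bin 50, so the calls are close to a single measurement. Both calls were lost without DCTCF2 replicate 2 (adjusted p = 0.182 each), and when wild type replicate 1 (0.166 each) or wild type replicate 2 (0.0941 each) was dropped. With run year as a covariate bin 50 differed by -0.66 and was not called (adjusted p = 0.127). Bin 50 was also lower with the central domain, at 17.2 and 20.3 in DCTCF2 against 29.7 and 28.9 in wild type (adjusted p = 0.127), and with the right domain (log2 -0.55, adjusted p = 0.131).

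Contacts that left the central domain toward the right were lower without passing the test. Central with right gave 6.84 and 7.38 in DCTCF2, against 8.44 and 8.02 in wild type (log2 -0.21 ± 0.08, adjusted p = 0.081). Of these 560 pairs 229 (40.9%) lay wholly lower and 37 (6.61%) wholly higher, against 29.7% and 13.7% of all 2853 pairs. Left with central differed by -0.10 and left with right by -0.11 (adjusted p = 0.349 each), with overlapping groups for left with right. Within the left domain (41.5 and 43.3 in DCTCF2, 44.0 and 42.6 in wild type) and the right domain (41.1 and 40.3 in DCTCF2, 40.9 and 44.0 in wild type) the groups overlapped. The lowest p-values among the combinations of a bin with the right domain were those of bins 53 and 54. They differed by log2 -0.48 (adjusted p = 0.0661) and -0.43 (adjusted p = 0.0896). None of these combinations was called on scaled contact values. On observed over expected values, bins 53, 70 and 75 were called lower with the right domain (limma adjusted p = 0.0349, 0.0315 and 0.0201).

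Over 2853 single pairs 1 was called (0.0351%), and 275 (9.64%) passed at an unadjusted p under 0.05. Bins 4 and 71, in the left and right domain, contacted each other at 4.43 and 3.31 in DCTCF2, against 27.5 and 22.9 in wild type (log2 of value plus 4.55 fell by 1.82 ± 0.27, adjusted p = 0.0445). The call was lost without any 1 of the 4 libraries, with adjusted p between 0.0952 and 0.435. The next lower pairs by p were bins 67 and 75, bins 45 and 50 and bins 70 and 79. The first of the higher pairs was bins 21 and 27, at 44.4 and 37.1 in DCTCF2 against 26.4 and 26.4 in wild type (log2 0.55, adjusted p = 0.335). Bins 9 and 11 (log2 0.60) and bins 1 and 24 (log2 0.81) came next on the higher side (adjusted p = 0.335 each). Bins 45 and 50 had 12.7 and 11.48 in DCTCF2, against 36.6 and 36.3 in wild type, opposite in direction to the rise within bins 45 to 49 (log2 -1.30, adjusted p = 0.235).

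By separation, contacts of DCTCF2 lay mostly lower at long range, but limma called 0 of 69 separations, with 12 (17.4%) at an unadjusted p under 0.05. At 42 kb the mean was 73.9 and 72.3 in DCTCF2, against 61.2 and 66.03 in wild type (log2 0.20, adjusted p = 0.189). Between 42 and 420 kb 10 separations were higher and 9 lower. Between 441 and 840 kb 19 of 20 were lower, 15 of them without overlap, and between 861 and 1470 kb 29 of 30 were lower, 12 without overlap. Over all separations 44.9% lay wholly lower and 11.6% wholly higher, so the share wholly lower between 861 and 1470 kb was no larger than this. Each library was scaled to the same total, so higher values at some separations must go with lower values at others. At 45 bins, or 945 kb, the mean was 8.61 and 8.34 in DCTCF2, against 9.96 and 9.94 in wild type (log2 -0.23, adjusted p = 0.189). Observed over expected values take this out, and on that scale central with right differed by -0.10 (adjusted p = 0.246) and bin 22 with the central domain by -0.50.

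**Figure D5:**
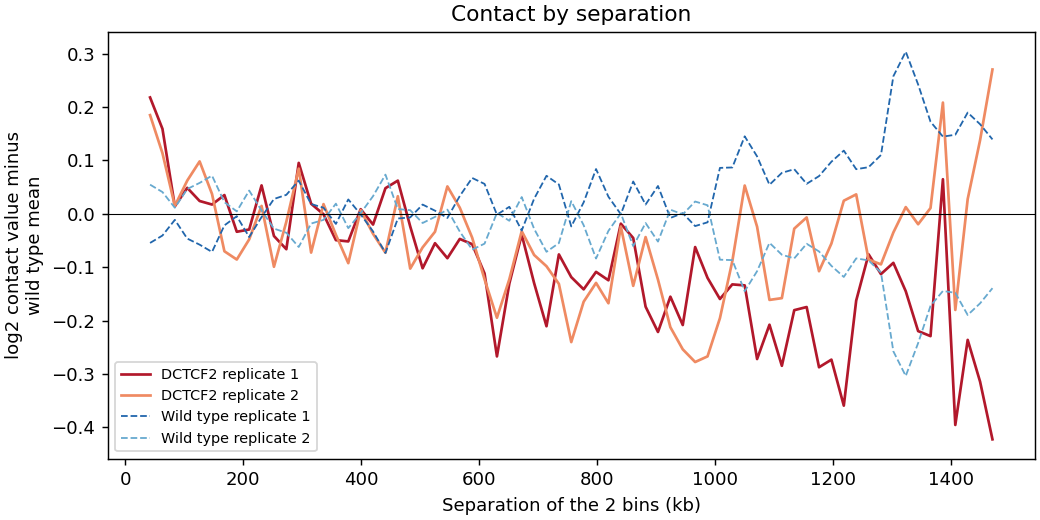
Log2 of the mean scaled contact value by separation in each DCTCF2 and wild type library, drawn as the difference from the wild type mean; DCTCF2 lies above wild type at 42 kb (scaled contact values 73.9 and 72.3 against 61.2 and 66.03) and below it at 945 kb (8.61 and 8.34 against 9.96 and 9.94).

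DCTCF2 was also set against the other 5 deletion lines in place of wild type. This contrast has 10 control libraries in place of 2, so its counts of calls cannot be compared with those against wild type. The spread in this test is that between replicate libraries, not between lines, and D35 had 59 bin pairs at 0 in each library. Calls numbered 15 bin pairs (0.526%), 42 insulation bins (60%), 33 tiles (24.6%), 51 bin and domain combinations (22.1%), 5 regions (41.7%) and 24 separations (34.8%). The middle stretch rose here too (log2 0.36 ± 0.06, limma adjusted p = 1.02e-04), and the tile of bins 45 to 49 with it (log2 0.57, adjusted p = 0.00242). Contacts of the Shh end with the Lmbr1 end fell (log2 -0.21, adjusted p = 0.00666), as did those of the central with the right domain (log2 -0.31, adjusted p = 5.98e-04). Bin 21 with the central domain rose (log2 0.43, adjusted p = 0.00333) and bin 22 fell (log2 -0.32, adjusted p = 0.0275). Insulation at bin 65 differed by -0.52 (adjusted p = 5.71e-05), and at bin 21 by -0.09 (adjusted p = 0.321). The control lines were unlike at bin 65, with means of -0.91 in DCTCF3, -0.79 in DCTCF4 and -0.56 in DCTCF1. DCTCF5 stood at -0.46 and D35 at -0.11, against -1.08 in DCTCF2 and -0.77 in wild type. In both D35 libraries the deepest value near bin 65 lay at bin 67. How far single control lines set the -0.52 was not tested. Bins 4 and 71, the pair called against wild type, were not called here (log2 -0.84, adjusted p = 0.102). This pair averaged 3.87 in DCTCF2, 2.89 in DCTCF4, 7.97 in D35 and 8.71 in DCTCF3. DCTCF5 had 20.4 and DCTCF1 22.3, against 25.2 in wild type, so a low value was not particular to DCTCF2.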

How the data were processed

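Contacts of the Shh region were measured by 5C in 2 DCTCF2 and 2 wild type ESC libraries, and 10 libraries of 5 other ESC deletion lines entered the fits. The deposited matrices give 1 contact signal per pair of 21 kb bins in mm9, per the file headers, and what they were normalized to is not stated. A second deposited matrix per library holds a ratio, observed over expected, made by the authors. Dividing contact values by it gave 1 expected value per bin separation in each library (largest relative spread 8.67e-10). Neither aligner nor binning software is given in the sources used here. Depth in reads is unknown.

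Contact values at least 2 bins apart were scaled to 1 total per library, here called scaled contact values. The log2 values of all 14 ESC libraries entered 1 fit per kind of feature (limma 3.58.1, R 4.3.3), with Benjamini-Hochberg adjustment over all features of a kind and 0.05 as the threshold. Single pairs had to be above 0 in at least 50 percent of these libraries and used a pseudocount of 4.55, the 5th percentile of values above 0. Simulated differences of 2 on the log2 scale were recovered in 67 of 69 of 2853 simulated bin pairs, those of 1 in 57 of 74 and those of 0.5 in 20 of 57, with 9 false calls. The simulated pairs varied independently of each other, whereas neighbouring pairs of the real maps often hold the same value. The simulation thus does not show how the test behaves with such shared values. Named bins, pairs, tiles and stripes are both boundary bins, bin 22, the bin of smallest p in each run of called insulation bins, all called features, and, where fewer than 3 were called, the 3 of smallest p in each direction. The regions, lists and tests were chosen with earlier results of these data known. Run years come from the labels. Alternatives left out libraries, used a replicate block or run year, the 4 libraries alone, the other deletion lines as control, observed over expected values, and other pseudocounts, filters, windows and tiles. Matrices of added replicates and of embryos were not used here.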

Additional observations from a re-analysis of the deposited data

How the results depend on the processing

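With 2 libraries a line, the fit drew its spread from all 14 ESC libraries. Leaving out each of the 4 libraries in turn left 0 to 1 bin pairs called, 3 to 16 insulation bins, 0 tiles, 0 to 2 stripes (a bin with a domain) and 0 to 1 regions. Over those fits the difference was 0.28 to 0.46 within the middle, -0.41 to -0.20 at bin 65 and -0.34 to 0.073 at bin 21. With run year as a covariate 0 pairs, 0 tiles and 0 stripes were called, and in the 4 libraries alone 0 pairs, 6 insulation bins and 0 stripes, with bin 65 at -0.31 but not called (adjusted p = 0.0712). With the other deletion lines in place of wild type, calls numbered 15 pairs, 42 insulation bins, 33 tiles, 51 stripes, 5 regions and 24 separations. On observed over expected values they numbered 0 pairs, 10 stripes and 4 regions, with bin 65 at -0.26 and not called. A pseudocount of 1 and a filter above 0 in every library gave 0 pairs, a window of 3 bins gave 3 insulation bins, and tiles of 4 or 8 bins gave 0 tiles. The cause of these changes was not tested.

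The shared replicate numbers do not mark a stated batch, and deviations of same-numbered DCTCF2 and wild type libraries correlated at -0.0917. A replicate block left 1 stripe called (bin 50 with the left domain), and 17 insulation bins. Among 53 other named values it changed 1 call, for bin 51. Over all settings 485 of 584 such values kept their direction and side of the threshold, 53 lost and 33 gained a call, and 13 changed direction. These were bin 21 with the left domain (-0.077 to 0.046 over the fits without 1 library), bin 21 with the right domain (-0.19 to 0.12 over those fits, 0.0076 against other lines, 0.14 as observed over expected), bin 22 with the left domain (-0.26 to 0.41 over those fits, -0.094 with run year), the left domain (0.068 against other lines, 0.0040 without the bins beside boundaries), the right domain (0.014 against other lines), left with right (-0.26 to 0.040 over those fits) and the Lmbr1 end (-0.13 to 0.032 over those fits). Depth in reads is unknown, so small contact values carry no counting error here.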

Other observations

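The same quantities in the other ESC lines are given as values, since each line is set against the same wild type libraries. Contacts of bin 50 with the left domain averaged 5.22 in DCTCF2, 5.93 in DCTCF1 and 5.51 in DCTCF4, against 8.39 in DCTCF3, 8.69 in DCTCF5, 10.8 in D35 and 8.60 in wild type. Contacts within the middle of the central domain were 44.5 and 44.4 in DCTCF2, 39.8 and 41.1 in DCTCF3, 40.7 and 36.2 in DCTCF4, 30.6 and 34.6 in DCTCF5, 32.4 and 31.7 in D35 and 30.6 and 30.3 in DCTCF1, against 32.3 and 36.5 in wild type. Bin 21 with the central domain stood at 27.5 and 26.2 in DCTCF2, 23.5 and 26.1 in DCTCF4, 23.6 and 21.6 in DCTCF5, 20.3 and 20.99 in DCTCF3, 19.8 and 19.8 in D35 and 13.8 and 14.0 in DCTCF1, against 19.7 and 21.3 in wild type. Bin 22 with the central domain stood at 15.3 and 14.0 in DCTCF2, 17.1 and 16.2 in DCTCF3, 17.2 and 16.8 in DCTCF4, 17.5 and 17.0 in DCTCF1, 17.5 and 21.6 in DCTCF5 and 22.7 and 20.6 in D35, against 21.99 and 19.0 in wild type. Bin 8 with bin 22, singled out after its values were seen, had 181 and 171 in DCTCF2, against 197 and 96.8 in wild type, so the wild type libraries lay on both sides of the DCTCF2 values.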
